A study of Mus musculus with 16 samples.

Results

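Soleus muscles of mice held for a week at a stable low oxygen level (day 14) were compared with soleus muscles taken at the end of the week in which oxygen was lowered (day 7). The mice were male, and all of both groups were under hypoxia, with the oxygen level brought down gradually to 10% by day 7 and held there until day 14, per the series' design text. The comparison holds 7 of the 14 RNA samples of the time course, 3 from day 7 and 4 from day 14, each on 1 array, so 7 of the 16 arrays. Day 0 samples, taken before hypoxia, served to link the slides and are given beside the results. The design text names 4 muscles per day, and a further day 7 sample was not analysed here. Strain, age and time of day are not given in the labels, which also leave it unsaid whether the RNA samples are from different mice, so the p-values measure only the spread between these samples.

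The soleus is a postural muscle rich in slow, oxidative fibres, which burn fatty acids in their mitochondria and hold much myoglobin. When oxygen falls, hypoxia-inducible factors activate genes of glycolysis and vessel growth in the muscle, while the kidney releases erythropoietin and the marrow makes more red cells. Pyruvate dehydrogenase kinases close the entry of glucose carbon to the citric acid cycle and so favour the use of fat, which takes more oxygen per unit of energy.

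Labelled RNA was hybridised to Agilent 1-colour arrays, on which the brightness of a spot measures a transcript. Levels are log2 brightness relative to the 75th percentile of the array, so a difference of 1 is a doubling, and levels of different genes cannot be set against each other. All day 7 arrays lie on slide 1 and all day 14 arrays on slide 2, and the slides were joined through day 0 RNA samples 1 and 2, which were run on both. The 75th percentile of brightness was 203 to 264 on the day 7 arrays and 49.1 to 67.1 on the day 14 arrays, and 49.0 to 52.7% against 37.9 to 38.9% of spots stood well above background. The difference between slides in the linking RNA samples correlated at 0.559 across 22145 features, and at 0.811 across the 14803 features well above background on all 16 arrays, which are values across genes and not replicates. Myh7, the slow myosin heavy chain that marks the soleus, stood well above background on all 7 arrays, at 10.52, 10.62 and 10.35 at day 7 and 10.48, 10.46, 10.29 and 10.40 at day 14. Day 14 levels below are put on the scale of slide 1 with a slide difference fitted for each gene from the day 0 arrays. Day 0 RNA samples 3 and 4, run on slide 2 only, also entered this fit. It can therefore lie outside both linking differences, as for Pdk4 (0.59 against 0.30 and 0.46). The difference or adjusted p without the slide term is given too for certain genes that passed with it. These are the ones that did not pass without it or whose difference moved by over 1.5 times. Genes that did not pass are mostly given with the slide term only, though some also moved, as Pkm did (0.54 with it, -0.13 without).

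From day 7 to day 14 Hbb-bt, Hba-a1, Alas2 and Slc4a1 of red cells rose, as did the chaperone genes Hspa1a and Hspa1l, the stretch-responsive Xirp1 and Ankrd2, and Acta2, Col4a1 and Col4a2 of vessel walls and basement membranes. Pdk4, Decr1 and Mlycd of fatty acid use fell, and so did the secreted signal Wnt4 and the tendon proteoglycan gene Fmod. Of 22145 features, 509 (2.30%) passed an adjusted p of 0.05 in limma's moderated test, 248 higher (1.12%) and 261 lower (1.18%). A fold of at least 2 was reached by 187 of them (110 up, 77 down), and 369 were named genes. At an unadjusted p under 0.05 there were 4898 features, and the median difference of all features was -0.04. The counts at an unadjusted p given below for gene lists stand against these 4898 of 22145 features. Differences were above 0 for 10313 features and below 0 for 11832.

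The count rests on the linking samples. Without the slide term 2600 features (11.7%) passed and 68.3% of them were higher, and 211 (0.953%) passed in the same direction in both fits, 113 higher and 98 lower. Of the 509 features, 68 had the opposite sign without the slide term. With day 0 RNA sample 2 left out 5 features passed, 1 of them among the 509 in the same direction. With day 0 RNA sample 1 left out 112 passed, 68 of them among the 509. Leaving out day 7 RNA sample 1 or 2 gave 65 or 89, with 63 or 86 among the 509, and leaving out day 7 RNA sample 4 gave 1210. Without day 14 RNA sample 1, 2, 3 or 4 there were 242, 238, 224 or 192. Leaving out day 3 RNA sample 1 gave 309, day 3 RNA sample 4 gave 985, and day 0 RNA sample 3 gave 262. None of the 52 genes named here as passing did so without day 0 RNA sample 2, and none of them turned direction under any single omission.

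**Figure D1:**
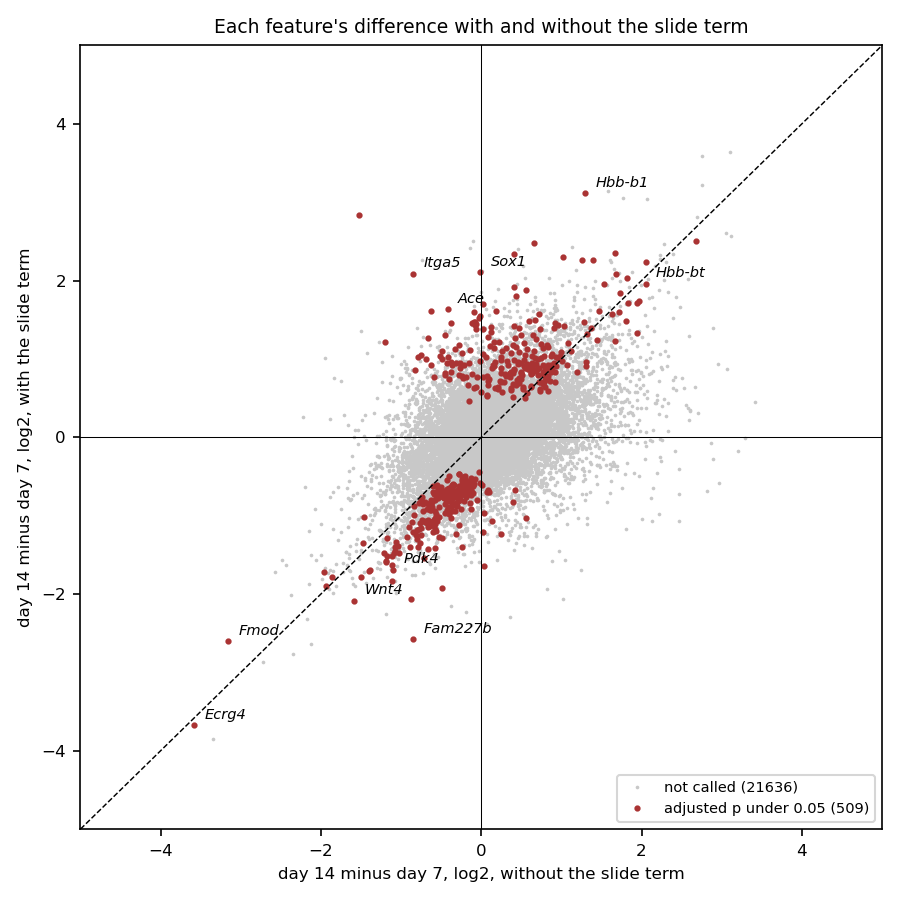
Day 14 minus day 7 of each feature on the log2 scale, with the slide term (vertical axis) against without it (horizontal axis); each dot is 1 feature, red where the adjusted p is under 0.05 (509 features), and the dashed line marks equal values. Hbb-bt, Fmod, Ecrg4 and Wnt4 lie near the line, whereas Ace, Itga5 and Sox1 lie above 0 with the slide term and at -0.42, -0.85 and -0.01 without it.

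Of 36 gene lists, the one of red cell genes held the most genes that passed. Of 14 measured genes of the red blood cell and erythroid list, 7 rose and none fell, where 1.12% of all features rose and 1.18% fell. The list's median difference was 1.12 (1.20 without the slide term, and -0.04 over all features). In 11 of its genes the day 14 samples lay wholly above the day 7 samples, where 14% of all features did. The median among all 14 was 0.74 for day 14 minus day 0 and -0.21 for day 7 minus day 0. The beta globin gene Hbb-bt, which encodes a chain of adult haemoglobin, had levels of 6.26, 6.32 and 5.92 at day 7 and 8.70, 8.20, 7.74 and 7.85 at day 14. All day 14 samples lay above all day 7 samples, sample 1 the highest, and the difference was 1.96 ± 0.34 log2 units (3.89-fold, adjusted p = 0.0194 by limma), with 2.05 without the slide term. The day 0 mean was 6.30, close to the day 7 mean of 6.16.

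The alpha globin gene Hba-a1 read 7.37, 7.04 and 6.85 at day 7 and 9.69, 9.05, 8.65 and 9.09 at day 14, again with no overlap and with day 14 sample 1 on top. Its difference was 2.04 ± 0.34 (4.10-fold, adjusted p = 0.0179). Alas2, the erythroid form of the enzyme that starts haem synthesis, read 1.54, 1.46 and 1.22 at day 7 and 4.14, 3.44, 3.08 and 3.28 at day 14. It was 4.23-fold higher at day 14 (2.08 ± 0.36, adjusted p = 0.0194), and sample 1 was again the highest of its group. The probe for Hbb-b2 gave 2.24 ± 0.37, adjusted p = 0.0177, and that for Hbb-b1 3.11 ± 0.38, adjusted p = 0.00708, although the latter difference was 1.30 without the slide term (adjusted p = 0.0972). Globin genes are close copies of each other and a probe can pick up more than its own transcript, so which copy rose is uncertain. Hba-a2 missed the threshold at 1.18 ± 0.29, adjusted p = 0.0520.

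Slc4a1, which encodes the band 3 anion exchanger of the red cell membrane, read -2.26, -2.36 and -2.08 at day 7 and -0.91, -0.69, -1.16 and -1.26 at day 14 and was 2.34-fold higher at day 14 (adjusted p = 0.0351). Ank1, the ankyrin that ties band 3 to the red cell skeleton and that muscle also makes in a short form, rose by 0.91 ± 0.14 (adjusted p = 0.0158), but differed by 0.16 without the slide term. The erythroid transcription factor gene Klf1 did not pass (adjusted p = 0.464). Its difference, -0.97, was the lowest of the list, but it was not well above background on any day 14 array. The ferrochelatase gene Fech (-0.33 ± 0.17, adjusted p = 0.268) and the transferrin receptor gene Tfrc (1.06 ± 0.32, adjusted p = 0.0903) did not pass either. Tfrc read 3.29 at day 0, 1.69 at day 7 and 2.74 at day 14, and passed without the slide term (1.02, adjusted p = 0.0191 by limma). In bulk muscle, more red cells in the tissue and more globin RNA per cell cannot be told apart. Other blood cell markers were measured as well. Of 31 macrophage and monocyte markers 1 rose, where 1.12% of all features did. That gene was Itgam, whose other probes differed by -0.05 and -0.44. Mean levels over the list were -0.52 to -0.27 at day 7 and -0.03 to 0.36 at day 14. Of 7 neutrophil markers none passed (4 at an unadjusted p under 0.05), with mean levels of -0.94 to -0.39 and -0.32 to 0.72. The part of these blood cells in the red cell result was not tested. Hmox1, the haem oxygenase that breaks haem down, read 0.28, 0.36 and 0.15 at day 7 and 1.81, 1.77, 2.28 and 1.07 at day 14, with sample 4 the lowest of day 14 yet above day 7, and rose 2.77-fold (1.47 ± 0.32, adjusted p = 0.0377). A second, dimmer Hmox1 probe differed by 0.11.

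The bases before the start sites of 3 of the globin and haem genes that rose together are printed below, to show where they carry the letters that erythroid regulators are known to read. RefSeq windows of 250 bases before the start (GRCm38.p6, printed 5′ to 3′ on the gene's strand) were matched by symbol for 8 of the 14 measured genes. GATA factors bind AGATAA or TGATAA, and KLF1 binds sites of the form CCNCNCCC. Capitals mark matches to any of the 3 forms, searched on both strands (TTATCT is AGATAA on the other strand). The Hbb-bt window lies at chr7:103813924-103814173 on the minus strand, Hba-a1 at chr11:32283422-32283671 and Alas2 at chrX:150547167-150547416, both on the plus strand.
Hbb-bt: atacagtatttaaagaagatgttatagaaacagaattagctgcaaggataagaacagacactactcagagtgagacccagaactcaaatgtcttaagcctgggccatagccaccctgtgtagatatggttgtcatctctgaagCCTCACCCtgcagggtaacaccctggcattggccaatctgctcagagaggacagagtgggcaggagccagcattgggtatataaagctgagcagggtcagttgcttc
Hba-a1: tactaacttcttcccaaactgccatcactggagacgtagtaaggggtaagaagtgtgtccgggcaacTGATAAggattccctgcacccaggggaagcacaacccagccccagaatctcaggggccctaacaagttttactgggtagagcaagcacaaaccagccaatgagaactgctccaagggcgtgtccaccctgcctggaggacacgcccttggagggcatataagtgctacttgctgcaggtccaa
Alas2: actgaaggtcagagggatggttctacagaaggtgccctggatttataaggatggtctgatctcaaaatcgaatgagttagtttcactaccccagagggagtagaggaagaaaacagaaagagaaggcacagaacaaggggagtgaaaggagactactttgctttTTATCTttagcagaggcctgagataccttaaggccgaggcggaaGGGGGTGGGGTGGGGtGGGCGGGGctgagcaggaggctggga
The Hbb-bt window holds CCNCNCCC beginning 107 bases before the start and neither GATA form, a match that 45.9% of all 32851 promoter windows share. Hba-a1 holds TGATAA 183 bases before its start (7.94% of windows hold it) and neither of the other forms. Alas2 holds AGATAA 86 bases before (9.99% of windows), and in a G-rich stretch nearer the start 4 matches to CCNCNCCC on the other strand, 3 of them overlapping, which begin 42, 40, 35 and 26 bases before. Either GATA form occurred in 5 of the 8 matched erythroid genes and in 16.6% of all windows. The 5 were Alas2 and Hba-a1, which rose, and Ermap, Hba-a2 and Klf1, which did not pass. A match describes letters and is no proof of a bound site.

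Among the fatty acid genes Pdk4, Decr1 and Mlycd fell. Of 36 measured genes of fatty acid uptake and oxidation, 3 fell and none rose, 33 had a difference below 0, and the median was -0.62 (-0.57 without the slide term). Of all 22145 features 1.18% fell and 11832 had a difference below 0. In 28 of the 36 the day 14 samples lay wholly below the day 7 samples, where 18.5% of all features did. The list median was 0.55 for day 7 minus day 0 and -0.11 for day 14 minus day 0. Pdk4, the pyruvate dehydrogenase kinase that spares glucose when fat is burned, read 8.19, 8.41 and 8.27 at day 7 and 6.27, 6.79, 6.98 and 6.36 at day 14. The groups did not overlap and Pdk4 fell 3.22-fold (-1.69 ± 0.40, adjusted p = 0.0448), to a mean of 6.60 from 8.29, with a day 0 mean of 7.16. Without the slide term the Pdk4 difference was -1.10 (adjusted p = 0.0550).

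Decr1, the dienoyl-CoA reductase needed to oxidise unsaturated fatty acids, read 7.26, 7.35 and 6.85 at day 7 and 6.05, 6.07, 5.98 and 5.84 at day 14. All 4 day 14 samples lay below the 3 day 7 samples, and the fall was 2.25-fold (-1.17 ± 0.28, adjusted p = 0.0448). Mlycd, which removes the malonyl-CoA that blocks fatty acid entry into mitochondria, read 6.87, 6.95 and 6.80 at day 7 and 5.51, 5.96, 5.89 and 5.69 at day 14 and fell 2.15-fold (-1.11 ± 0.26, adjusted p = 0.0460), but differed by -0.62 without the slide term (adjusted p = 0.0877). Day 0 means were 6.09 for Decr1 and 5.99 for Mlycd. A second probe of Decr1 differed by -0.93. The range over the list ran from Acot1, an acyl-CoA thioesterase, at -2.64 ± 0.76, adjusted p = 0.0776, to the fatty acid transporter Slc27a4 at 0.58 ± 0.19, adjusted p = 0.112, neither of them past the threshold. The mitochondrial carrier Slc25a34, outside the list, read 5.20, 4.96 and 4.99 at day 7 and 3.28, 3.54, 3.50 and 3.59 at day 14, with no overlap, and fell 2.97-fold (-1.57 ± 0.28, adjusted p = 0.0198; -1.19 without the slide term).

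**Figure D2:**
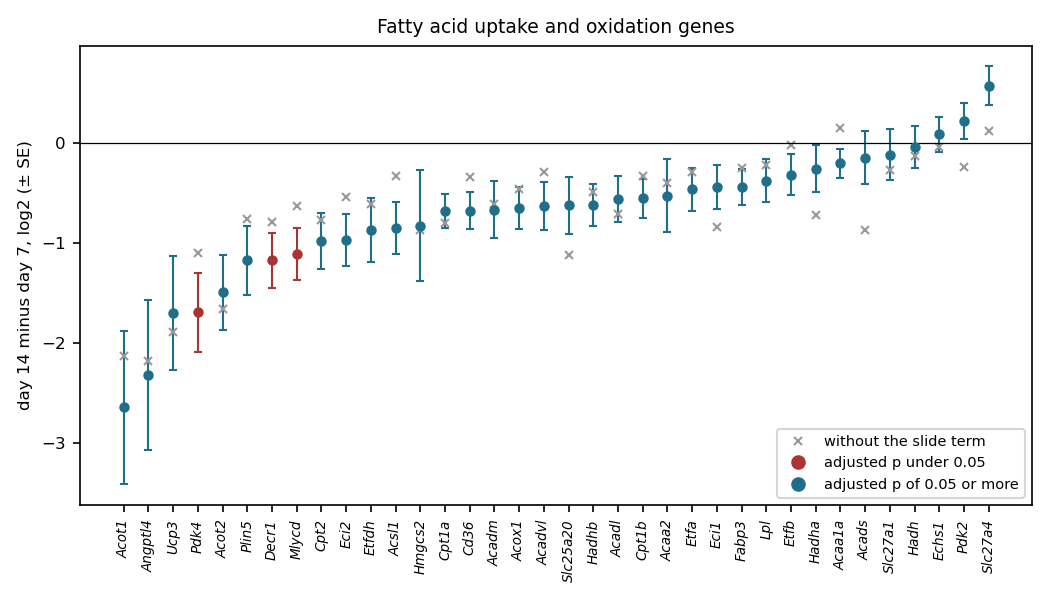
Day 14 minus day 7 (log2, ± SE from the fit) of the 36 measured genes of fatty acid uptake and oxidation, in order of size, with crosses for the value without the slide term. Pdk4, Decr1 and Mlycd, in red, passed the threshold, and 33 of the 36 points lie below 0.

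Adipocytes also hold genes of lipid handling. Of 23 adipocyte markers none passed by limma, where 2.3% of all features did. An unadjusted p under 0.05 was reached by 4 of them, and by 4898 of all 22145 features. The median of the markers was -0.39, and their mean level was 1.96 to 2.48 at day 7 and 1.67 to 2.36 at day 14. The lipid droplet coat gene Plin1, an adipocyte marker, read 0.18, 0.997 and -0.54 at day 7 and -1.93, -0.71, -0.52 and -1.40 at day 14, with overlapping groups (-1.35 ± 0.52, adjusted p = 0.151). The part of fat cells in the fatty acid result was not tested.

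Of 77 measured genes of oxidative phosphorylation 1 fell, where 1.18% of all features did, and of 23 genes of the citric acid cycle none passed by limma (2 at an unadjusted p under 0.05), shares near that of all features. Differences were below 0 for 69 of the 77 and 20 of the 23, against 11832 of all 22145 features. The list medians were -0.20 and -0.30, but -0.02 and -0.09 without the slide term. Day 14 lay wholly below day 7 for 24 of the 77 and 13 of the 23, against 18.5% of all features. Atp5l, the g subunit of ATP synthase, fell (-0.68 ± 0.16, adjusted p = 0.0497), but differed by -0.23 without the slide term, and its 4 other probes differed by -0.47 to -0.63. The citric acid cycle genes with the smallest p-values were Idh2 (-0.48 ± 0.17, adjusted p = 0.131) and Fh1 (-0.59 ± 0.25, adjusted p = 0.183), which encode isocitrate dehydrogenase and fumarase. Of 17 glycogen genes 2 fell, against 1.18% of all features. Pgm1, the phosphoglucomutase that joins glycogen to glycolysis, read 7.54, 7.61 and 7.52 at day 7 and 6.90, 6.91, 6.77 and 6.69 at day 14, with no overlap (-0.74 ± 0.15, adjusted p = 0.0315; -0.51 without the slide term). Ppp1r3d, a subunit that targets a phosphatase to glycogen, fell 2.37-fold (-1.25 ± 0.28, adjusted p = 0.0408), but differed by -0.75 without the slide term (adjusted p = 0.0593). No gene among 25 of glycolysis passed (8 at an unadjusted p under 0.05), and the median was 0.09. The muscle pyruvate kinase gene Pkm had the difference 0.54 ± 0.16, adjusted p = 0.0765 and the phosphofructokinase gene Pfkp 0.70 ± 0.19, adjusted p = 0.0627, while a second Pfkp probe differed by -0.51. Without the slide term Pkm differed by -0.13 (adjusted p = 0.688 by limma) and Pfkp by 0.49 (adjusted p = 0.0476).

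Of 26 measured genes of lipid synthesis 2 passed, where 2.3% of all features did. Me1, the malic enzyme that supplies NADPH, read 4.60, 4.73 and 4.63 at day 7 and 3.91, 3.98, 3.88 and 3.75 at day 14 and fell 1.71-fold (-0.77 ± 0.13, adjusted p = 0.0177; -0.46 without the slide term), with no overlap. Its other probes differed by -0.43 and -0.13. Lss, the lanosterol synthase of the cholesterol pathway, passed as higher (adjusted p = 0.0177), but it was not well above background on any day 14 array, so no fold can be given, and it did not pass without the slide term (adjusted p = 0.696).

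**Figure D3:**
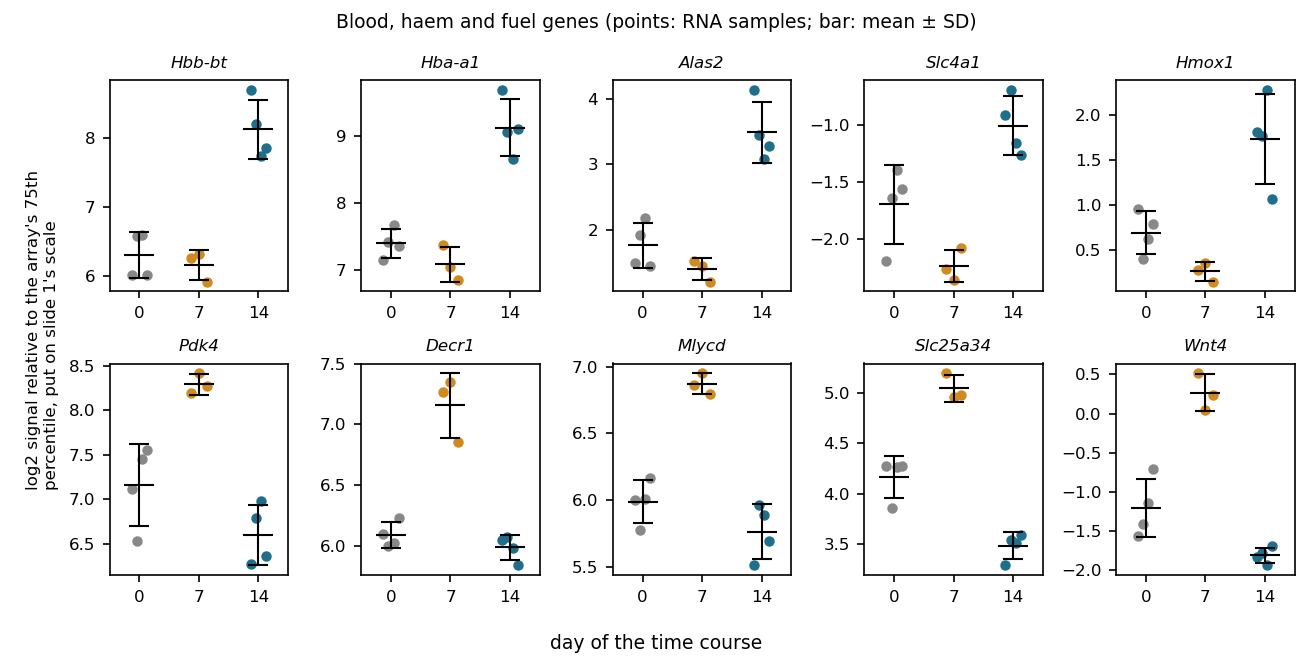
Levels of 10 genes of blood, haem, fuel use and signalling in the RNA samples of day 0 (grey), day 7 (orange) and day 14 (blue), in log2 relative to the 75th percentile of the array and on the scale of slide 1; points are RNA samples and bars the mean ± SD, with an axis of its own for each gene. Day 14 lies above day 7 for Hbb-bt, Hba-a1, Alas2, Slc4a1 and Hmox1 and below it for Pdk4, Decr1, Mlycd, Slc25a34 and Wnt4.

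The chaperone genes Hspa1a, Hspa1l and Hspb2 rose. Of 24 measured heat shock proteins 3 rose and none fell, the median was 0.23 (0.34 without the slide term), and 10 had day 14 samples wholly above day 7; of all features 1.12% rose and 14% lay wholly above. Hspa1a, an inducible HSP70 chaperone, read 0.26, 0.10 and 0.50 at day 7 and 1.30, 1.45, 1.69 and 1.44 at day 14. The groups did not overlap, and Hspa1a rose 2.27-fold (1.18 ± 0.20, adjusted p = 0.0179), while its day 0 mean was higher still, at 2.07. Hspa1l, an HSP70 gene whose start lies 547 bases from that of Hspa1a on the opposite strand, read 2.22, 1.82 and 2.07 at day 7 and 2.89, 2.85, 2.72 and 2.99 at day 14 and rose 1.77-fold (0.83 ± 0.14, adjusted p = 0.0179; day 0 mean 3.05), but differed by 0.40 without the slide term (adjusted p = 0.0805). Hspb2, a small heat shock protein of muscle, rose by 0.50 ± 0.11 (adjusted p = 0.0358), and the related Hspb7 missed the threshold at 0.90 ± 0.23, adjusted p = 0.0551. Hspa1a and Hspa1l encode closely related proteins, so their probes may share signal.

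Heat shock factor reads inverted repeats of GAA, here searched as GAANNTTC, a pattern that reads the same on both strands. The 250 bases before the start of Hspa1a are printed to show the match, at chr17:34972157-34972406 on the minus strand (GRCm38.p6, RefSeq).
Hspa1a: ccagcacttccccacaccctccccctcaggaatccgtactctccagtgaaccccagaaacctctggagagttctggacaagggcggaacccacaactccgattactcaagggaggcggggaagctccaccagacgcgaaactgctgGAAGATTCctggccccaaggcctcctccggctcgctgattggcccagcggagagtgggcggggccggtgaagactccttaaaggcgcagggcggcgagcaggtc
The match begins 104 bases before the start. The same letters occurred in 7 of 18 heat shock genes with a RefSeq window and in 6.69% of all windows, and not in the window of Hspa1l.

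Xirp1 and Ankrd2, which answer to mechanical load, rose as well. Of 18 stretch and Z-disc genes 2 rose, with a median of 0.31 (0.38 without the slide term) and 15 differences above 0. Of all 22145 features 1.12% rose and 10313 had a difference above 0. Xirp1, an actin-binding protein of muscle attachment sites, read 3.56, 3.21 and 3.88 at day 7 and 4.98, 4.98, 4.93 and 4.997 at day 14. Day 14 samples lay within 0.07 log2 units of each other and above all day 7 samples (2.68-fold, 1.42 ± 0.29, adjusted p = 0.0313), next to a day 0 mean of 5.02. Ankrd2, a stretch-responsive ankyrin repeat protein of slow muscle, read 7.69, 7.62 and 7.60 at day 7 and 8.55, 8.55, 8.52 and 8.61 at day 14 and was 1.89-fold higher at day 14 (0.92 ± 0.18, adjusted p = 0.0245), but differed by 0.33 without the slide term (adjusted p = 0.292). Its day 0 mean was 8.87. The muscle LIM protein gene Csrp3 gave 1.14 ± 0.28, adjusted p = 0.0536.

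The adult myosin heavy chain genes did not pass. Myh7 differed by -0.09 ± 0.13, adjusted p = 0.735, Myh2, the fast oxidative type 2A myosin, by -0.12 ± 0.18, adjusted p = 0.748, and Myh1, the type 2X myosin, by -0.32 ± 0.43, adjusted p = 0.699. Myh4, the fast glycolytic type 2B myosin, read 9.44, 4.31 and 9.83 at day 7 and 2.10, 3.53, 3.86 and 6.57 at day 14, so 2 of the 3 day 7 samples were far above the third, and its difference was -3.84 ± 1.83, adjusted p = 0.237. Pvalb, the calcium buffer parvalbumin of fast fibres, read 7.76, 7.05 and 8.94 at day 7 and 6.62, 6.95, 6.13 and 6.55 at day 14 (-1.36 ± 0.59, adjusted p = 0.198). Pvalb did pass as lower without the slide term (-1.56, adjusted p = 0.0433 by limma). Of 17 slow fibre genes 1 rose (Ankrd2), against 1.12% of all features, with a median of 0.34. Of 18 fast fibre genes none passed (4 at an unadjusted p under 0.05), with a median of -0.13. Myoglobin (Mb) differed by 0.13 ± 0.17, adjusted p = 0.707. Ppp3ca, a catalytic subunit of calcineurin that promotes the slow fibre programme, fell (-0.57 ± 0.13, adjusted p = 0.0436), but differed by -0.15 without the slide term. It was the 1 regulator of 25 to pass, where 2.3% of all features did, and it did not pass without the slide term (adjusted p = 0.499 by limma).

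Among vessel and matrix genes Acta2, Gpihbp1, Notch4, Col4a1, Col4a2 and Eln rose and Vegfc fell. Differences were below 0 for 5 of 14 pericyte and smooth muscle, 8 of 24 endothelial, 13 of 24 angiogenic and 17 of 37 matrix genes. The lowest in these lists were Rgs5 (-0.28), Cldn5 (-0.87), Thbs1 (-1.19) and Thbs2 (-1.46), none of them past the threshold. Of all features 1.12% rose and 1.18% fell. Acta2, the smooth muscle actin of vessel walls, read 4.37, 4.24 and 4.17 at day 7 and 5.58, 5.31, 5.35 and 5.07 at day 14. The groups were apart, and Acta2 rose 2.10-fold (1.07 ± 0.20, adjusted p = 0.0225; 0.88 without the slide term), the 1 gene to pass of 14 pericyte and smooth muscle markers, whose mean level was 2.95 to 3.12 at day 7 and 3.18 to 3.40 at day 14. Gpihbp1, which holds lipoprotein lipase on capillaries, read 3.97, 4.25 and 4.08 at day 7 and 5.19, 4.76, 4.91 and 5.07 at day 14 and rose 1.84-fold (0.88 ± 0.21, adjusted p = 0.0446), the 1 gene to pass of 24 endothelial markers (median 0.20, mean level 3.10 to 3.21 at day 7 and 3.25 to 3.43 at day 14). Of 24 angiogenic ligands and receptors, the endothelial receptor gene Notch4 rose (0.94 ± 0.16, adjusted p = 0.0179; 0.46 without the slide term) and the lymphatic growth factor gene Vegfc fell (-0.84 ± 0.15, adjusted p = 0.0198; -0.64). Whether cell numbers or RNA per cell moved was not tested.

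Col4a1 and Col4a2 encode the chains of basement membrane collagen and lie head to head on chromosome 8, with RefSeq starts 21 bases apart on opposite strands. Col4a1 read 3.14, 3.12 and 3.58 at day 7 and 4.20, 4.09, 4.45 and 4.31 at day 14, and Col4a2 read 3.67, 3.52 and 3.80 at day 7 and 4.54, 4.46, 4.86 and 4.89 at day 14. Neither had overlapping groups, and the rises were 1.97-fold (0.98 ± 0.18, adjusted p = 0.0198) and 2.03-fold (1.02 ± 0.19, adjusted p = 0.0205), with day 0 means of 4.38 and 4.82. Without the slide term they were 0.41 and 0.24 and did not pass. They were the 2 genes to pass of 37 matrix and fibroblast genes (median 0.13), where 2.3% of all features passed. Eln, the elastin of artery walls, read -1.41, -2.12 and -1.92 at day 7 and 0.27, -0.24, -0.26 and 0.50 at day 14 and rose 3.69-fold (1.88 ± 0.44, adjusted p = 0.0448), but its linking samples differed between slides by -0.83 and -1.78, and the difference was 0.56 without the slide term.

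**Figure D4:**
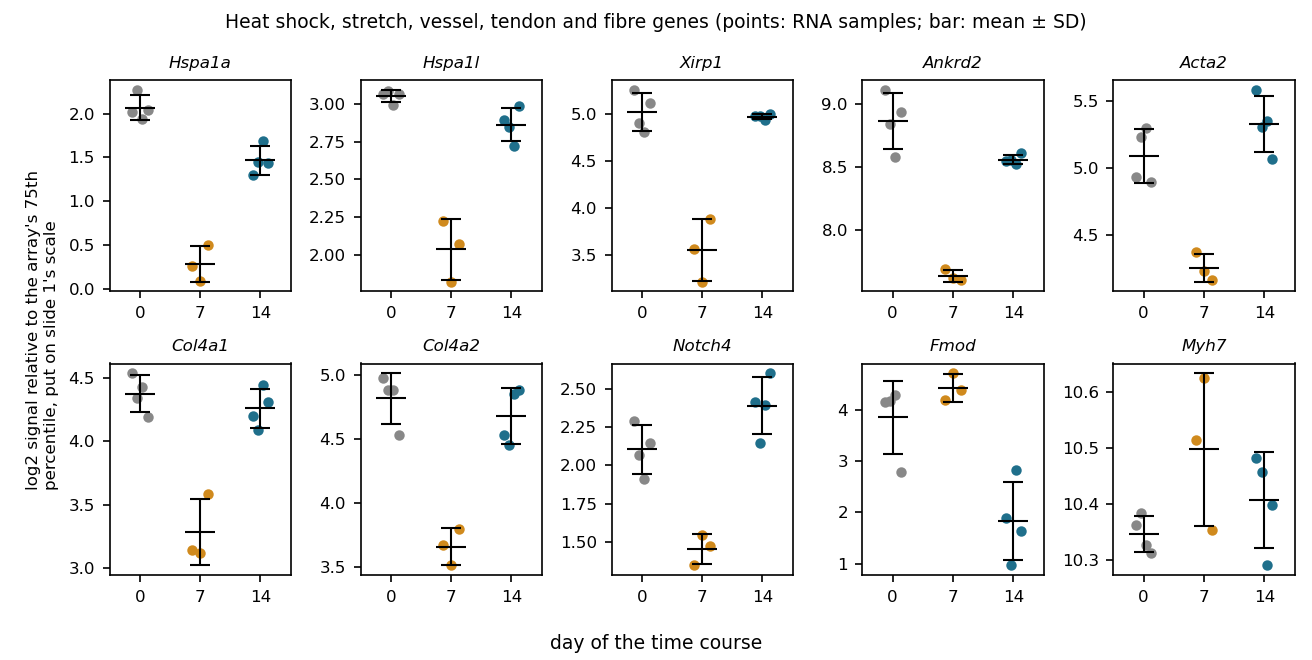
Levels of 10 genes of heat shock, stretch, vessel wall, tendon and fibre type in the RNA samples of day 0 (grey), day 7 (orange) and day 14 (blue), in log2 relative to the 75th percentile of the array and on the scale of slide 1; points are RNA samples and bars the mean ± SD, with an axis of its own for each gene. Day 14 lies above day 7 in all but Fmod, which lies below, and Myh7, whose groups overlap and lie between 10.29 and 10.62.

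Of 27 measured targets of hypoxia-inducible factors 1 rose, Hmox1, and 1 fell, Vldlr, and the median was 0.04. Of all features 1.12% rose and 1.18% fell. Vldlr, a receptor for triglyceride-rich lipoproteins, read 5.79, 5.67 and 5.61 at day 7 and 4.71, 4.69, 4.68 and 4.57 at day 14. It fell 2.04-fold with no overlap (-1.03 ± 0.18, adjusted p = 0.0179; -0.58 without the slide term), to a level near its day 0 mean of 4.59, and a second probe differed by -0.87. Vegfa, the main vessel growth factor, read 4.43, 4.51 and 4.48 at day 7 and 4.51, 4.58, 4.43 and 4.54 at day 14, with a difference of 0.04 ± 0.20, adjusted p = 0.932. Ankrd37, a direct target, read 0.90, 1.11 and 0.67 at day 7 and 1.34, 1.42, 1.45 and 1.37 at day 14 (0.50 ± 0.16, adjusted p = 0.0926), above its day 0 mean of 0.24 in every sample of both groups. Ankrd37 did pass without the slide term (0.67, adjusted p = 0.00657 by limma). Pfkfb3, which makes the activator of phosphofructokinase, overlapped between groups (-0.74 ± 0.39, adjusted p = 0.286).

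Fmod fell among the tendon genes. Of 17 measured genes 1 fell and none rose, where 1.18% of all features fell. The median was -1.26 (-1.15 without the slide term), and the mean level was 1.84 to 2.58 at day 7 and 0.50 to 1.89 at day 14. Fmod, the tendon proteoglycan fibromodulin, read 4.19, 4.72 and 4.38 at day 7 and 1.89, 0.97, 2.83 and 1.65 at day 14, with sample 3 the highest of day 14 and still below day 7. The fall was 6.05-fold (-2.60 ± 0.57, adjusted p = 0.0377; -3.16 without the slide term). Tnmd, the tendon marker tenomodulin, read 1.03, 1.57 and 1.35 at day 7 and -0.43, -0.94, 0.36 and -1.21 at day 14 (-1.87 ± 0.54, adjusted p = 0.0765). Ecrg4, a gene for a secreted peptide, read 0.42, 1.42 and 0.66 at day 7 and -3.85, -3.81, -1.20 and -2.51 at day 14 and gave the largest called fall (-3.67 ± 0.83, adjusted p = 0.0408), but only 1 of 4 day 14 arrays was well above background. How much tendon each muscle carried was not tested.

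Wnt4, a secreted ligand of the Wnt family, read 0.52, 0.04 and 0.23 at day 7 and -1.84, -1.79, -1.94 and -1.70 at day 14. The day 14 samples lay within 0.24 log2 units of each other, all below day 7, and Wnt4 fell 4.24-fold (-2.08 ± 0.29, adjusted p = 0.0101; -1.58 without the slide term, adjusted p = 0.00484). Its day 0 mean was -1.21. Another probe for Wnt4 differed by -0.45. Ulk1, the kinase that starts autophagy, read 5.04, 4.93 and 4.70 at day 7 and 4.14, 4.06, 4.23 and 4.05 at day 14. It fell 1.70-fold (-0.77 ± 0.16, adjusted p = 0.0337 by limma), with -0.30 without the slide term. Of 22 genes of atrophy and autophagy Ulk1 alone passed, where 2.3% of all features did. Mstn, the growth inhibitor myostatin, was well above background on 2 day 7 arrays and no day 14 array, and did not pass (adjusted p = 0.157 by limma). It was above background on no day 0 array either, and its linking samples differed between slides by 0.05 and 1.18, so no fold can be given. Among 20 genes of insulin-like growth factor and insulin signalling none passed (4 at an unadjusted p under 0.05), Akt1 having the difference 0.52 ± 0.13, adjusted p = 0.0565. The binding protein gene Igfbp2 gave 0.92 ± 0.32, adjusted p = 0.123.

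Itgam and Il2rg, genes of immune cells, rose. Itgam, an integrin of myeloid cells, read 5.94, 5.93 and 5.89 at day 7 and 6.80, 6.78, 6.54 and 6.49 at day 14 and was 1.66-fold higher (0.73 ± 0.17, adjusted p = 0.0408), but its other probes differed by -0.05 and -0.44. The median of the 31 macrophage and monocyte markers was 0.53. Differences were above 0 for 26 of them, against 10313 of all 22145 features. In 16 the day 14 samples lay wholly above day 7, against 14% of all features. Il2rg, the shared gamma chain of interleukin receptors, read -2.36, -1.74 and -1.57 at day 7 and -0.46, -0.71, -0.25 and -0.42 at day 14. It rose 2.70-fold without overlap (1.43 ± 0.29, adjusted p = 0.0307). S100a8 and S100a9, calcium-binding proteins of neutrophils, gave 2.56 ± 0.95, adjusted p = 0.138 and 2.61 ± 1.03, adjusted p = 0.163, with S100a9 reading -1.46, -1.89 and -2.47 at day 7 and 1.80, 1.14, 1.47 and -1.74 at day 14. Both did pass without the slide term (adjusted p = 0.0161 and 0.0223 by limma). No gene of 29 interferon stimulated genes passed (11 at an unadjusted p under 0.05, median 0.38), with Bst2 (0.68 ± 0.17, adjusted p = 0.0579) and Ifi35 (0.53 ± 0.14, adjusted p = 0.0592) nearest, and none of 14 lymphocyte and antigen presentation genes (1 at an unadjusted p under 0.05, median 0.30). Without the slide term Bst2 passed (0.50, adjusted p = 0.0207 by limma) and Ifi35 did not (0.15, adjusted p = 0.543).

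Major urinary proteins, liver-made carriers of pheromones, were dim. All 7 measured differences were above 0 and the median was 2.03, yet none passed (5 at an unadjusted p under 0.05). Mup1, Mup19 and Mup20 did pass without the slide term (adjusted p = 0.0098, 0.00586 and 0.0314 by limma). Mup19 read -1.54, -1.72 and -2.04 at day 7 and -0.46, -0.06, 0.38 and -0.13 at day 14, with no overlap (1.70 ± 0.42, adjusted p = 0.0538), below its day 0 mean of 0.66. Mup1 was well above background on no day 7 array and on only 1 day 14 array, so no fold can be given (adjusted p = 0.0585). Mup20 was not well above background on any of the 7 arrays. These genes are near copies and their probes may share signal. Of 14 nerve and Schwann cell markers none passed (2 at an unadjusted p under 0.05, median -0.42, mean level 0.05 to 0.26 at day 7 and -1.03 to 0.17 at day 14), and none of 21 satellite cell genes (2 at an unadjusted p under 0.05).

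Of 78 cytosolic ribosomal protein genes none passed by limma (14 at an unadjusted p under 0.05, median -0.12), where 2.30% of all features did, Rpl4 having -0.63 ± 0.16, adjusted p = 0.0548, and none of 31 proteasome subunits (10 at an unadjusted p under 0.05, median -0.18), Psma7 having -0.55 ± 0.13, adjusted p = 0.0520. Day 14 lay wholly below day 7 for 16 of the 78 and 13 of the 31, against 18.5% of all features. None of 17 circadian clock genes passed (2 at an unadjusted p under 0.05). The clock output gene Dbp gave 0.03 ± 0.40, adjusted p = 0.977, Per3 0.13 ± 0.33, adjusted p = 0.854, the activator gene Arntl -0.24 ± 0.36, adjusted p = 0.747 and Tef -0.62 ± 0.19, adjusted p = 0.0851. Amd2 (-0.90 ± 0.23, adjusted p = 0.0586) was nearest the threshold of 12 polyamine genes, none of which passed (4 at an unadjusted p under 0.05). In 20 genes of the cell cycle none passed (4 at an unadjusted p under 0.05), and of 24 antioxidant genes Hmox1 alone. Pdk4, which fell, was the 1 gene to pass of 20 glucocorticoid responsive genes, and Vldlr, which also fell, the 1 of 19 of the amino acid and integrated stress response.

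**Figure D5:**
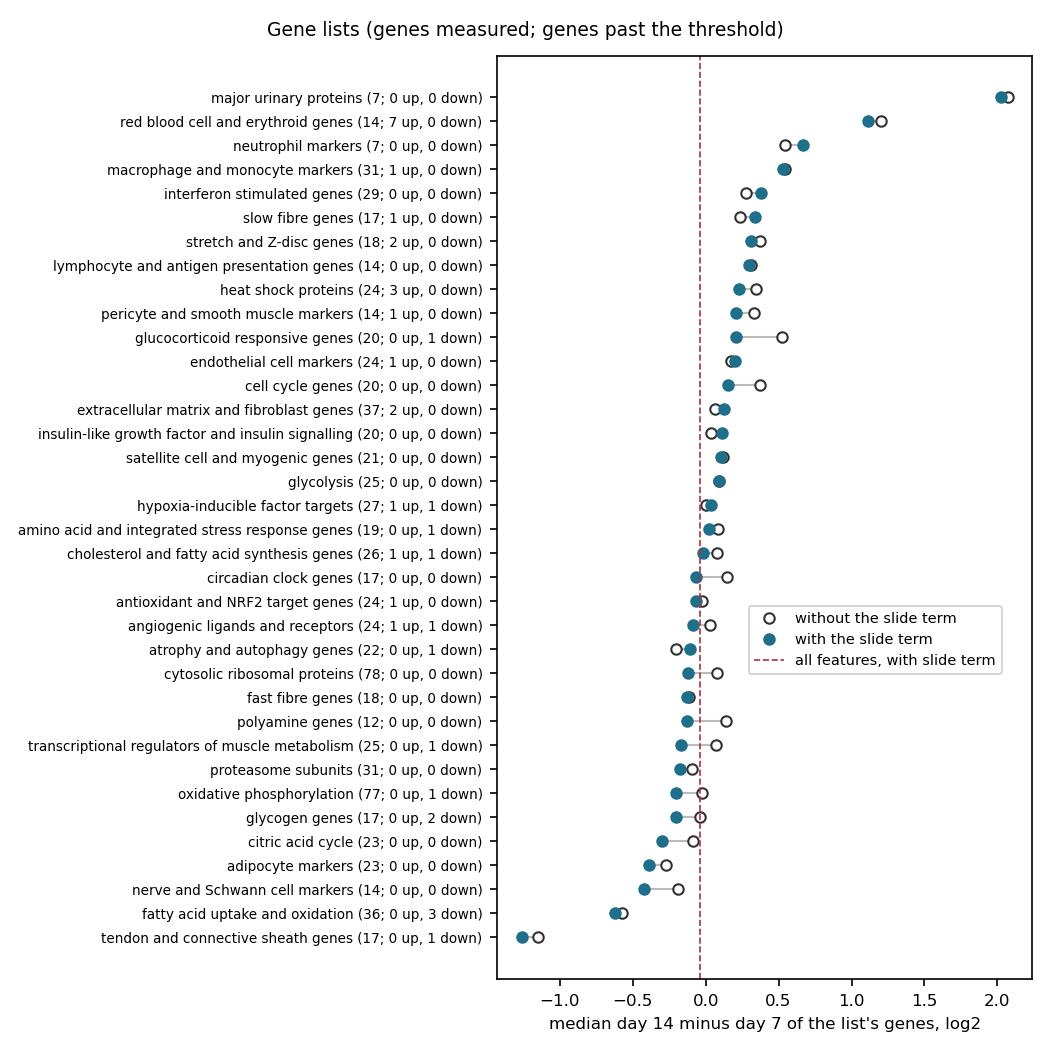
Median day 14 minus day 7 (log2) of each gene list, with the slide term (filled) and without it (open), the number of genes measured and the number past the threshold beside each name; the dashed line is the median of all features, -0.04. Red cell genes lie at 1.12, major urinary proteins at 2.03, fatty acid genes at -0.62 and tendon genes at -1.26.

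Several of the largest differences were outside these lists. Ces2c, a carboxylesterase, read -1.46, -1.31 and -2.24 at day 7 and -0.18, 0.81, 0.19 and -0.16 at day 14 and rose 3.57-fold (1.84 ± 0.39, adjusted p = 0.0356), with 2 other probes at 1.80 and 1.67. Rnu3b1, a U3 small nucleolar RNA that serves ribosomal RNA processing, read 0.18, -0.02 and -0.66 at day 7 and 1.84, 1.26, 1.61 and 1.59 at day 14 and rose 3.35-fold (1.74 ± 0.31, adjusted p = 0.0195; 1.97 without the slide term). Neither overlapped between groups. Arhgef39 rose by 1.72 ± 0.38 (adjusted p = 0.0381) and the tau tubulin kinase gene Ttbk1 by 1.57 ± 0.34 (adjusted p = 0.0364), with 1 and 2 of 3 day 7 arrays above background. Pcm1, a scaffold of centriolar satellites, read 3.04, 3.27 and 2.78 at day 7 and 1.64, 1.69, 1.35 and 1.40 at day 14 on its brightest probe and fell 2.85-fold (-1.51 ± 0.19, adjusted p = 0.00732), but another probe differed by 1.09 in the opposite direction. Gas2, a protein that binds actin and microtubules, fell (-1.63 ± 0.38, adjusted p = 0.0432).

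Some called falls ended below background at day 14. Fam227b, Gm4788, Gria4 (a glutamate receptor subunit), Gabra3 (a GABA receptor subunit), Iah1 (an esterase) and Qtrt2 (a subunit of a tRNA-modifying enzyme) were well above background on all 3 day 7 arrays and on no day 14 array. Against the background level, after the slide term, the falls were at least 1.02-fold for Gm4788 and 1.31-fold for Gabra3 (adjusted p = 0.0448 and 0.0315 by limma). Gabra3 was above background on only 1 day 0 array. No fold can be given for Fam227b (adjusted p = 0.0107 by limma) and Gria4 (adjusted p = 0.0448). Both were above background on no day 0 array, so their slide difference was fitted below background. For Iah1 (adjusted p = 0.0158) and Qtrt2 (adjusted p = 0.0149) no fold can be given, since the bound was under 1. The calls of Fam227b and Gria4 were lost without the slide term (adjusted p = 0.271 and 0.0610), and the linking samples of Fam227b differed between slides by 1.56 and 1.66. The day 14 arrays were the dimmer ones, and the part of this in the calls was not tested.

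Ace, Itga5 and Sox1 were called higher through the slide term alone. Ace, the angiotensin-converting enzyme of endothelium, gave -0.05, -0.12, -0.23 and 0.25 on the day 14 arrays as measured, against 0.53, 0.03 and 0.58 at day 7, and its linking samples differed between slides by -2.05 and -1.98. After the slide term the difference was 1.63 ± 0.28, adjusted p = 0.0179, and before it -0.42. Itga5, an integrin subunit that binds fibronectin, passed as higher with the slide term (adjusted p = 0.0420) and differed by -0.85 without it, with linking differences of -2.66 and -3.23. It was well above background on no day 14 array, so no fold can be given. Sox1, a neural transcription factor, gave 2.11 ± 0.39, adjusted p = 0.0211 and -0.01, with linking differences of -1.61 and -2.64, and a second Sox1 probe differed by -0.37. Their direction from day 7 to day 14 therefore depends on the slide difference fitted from the day 0 arrays.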

How the data were processed

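The scanner files hold linear intensity values from Agilent Feature Extraction, with local background subtracted and spatial trends removed, per the file headers, and with no scaling between arrays; the authors also deposited a table of linear intensity, whose steps are not given in the sources used here. Values were log2-transformed, each array's 75th percentile over non-control spots was subtracted, and spots of 1 probe were averaged. A probe was kept if 3 or more of the 16 arrays had it well above background (29479 probes). Kept probes were named through RefSeq, and the brightest probe stood for each gene, giving 22145 features, 14107 of them named. limma 3.58.1 in R 4.3.3 (statmod) fitted day and slide as fixed terms and RNA sample as a random block over all 16 arrays, 2-sided, with Benjamini-Hochberg adjustment over all features; the within-RNA correlation was 0.448. The number of arrays limits the precision. Other scaling, background correction, filter, slide term and samples were tried. The code was tested on simulated data.

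For a gene below background in a group, folds are bounds against the lowest brightness above background, on means of log2 values. No bound is given for a gene above background on no day 0 array. The deposited files lack the mean signal, so normexp used the median signal. The groups, gene lists and genes were chosen with earlier results of these data known. Named genes were the 12 largest rises and falls above background in 1 group and not overlapping, the 10 that also passed without the slide term, up to 2 per direction and list, and a set of core genes; some were left out. Slc4a1, Mlycd, Hspb2, Hba-a2, Klf1, Fech, Acot1, Slc27a4, Csrp3, Tnmd and Hspb7 were added after their values were seen. Day 7 and day 14 samples of the same number correlated at -0.02, 0.05 and 0.17 in their deviations, so numbers were not taken to pair them.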

Additional observations from a re-analysis of the deposited data

Results flagged for a closer look

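Among 93 genes examined, 3 had a day 14 sample apart from the other 3 day 14 samples by Dixon's test, which chance alone gives in about 1 in 20 such groups. Fam227b read -4.84 in sample 3 against -5.85 to -5.74 in the others, all of them below background. Gas2 read -2.55 in sample 4 against -2.02 to -1.93, and Csrp3 read 7.88 in sample 1 against 7.58 to 7.62.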

How the results depend on the processing

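Against 509 features, 2600 passed with no slide term and 4186 when the day 0 arrays of slide 1 were also left out; 3479 passed with the slide difference as a fixed amount, 4160 with normexp, 1660 among probes above background on all 16 arrays, 808 with the deposited table and 1146 with the replicate block, while 285 passed with no filter on dim probes and 262 on 11 arrays. The cause was not tested, beyond the smaller or larger sets of features and arrays these settings use. Quantile scaling, cyclic loess and single probes gave 565, 597 and 426. Omitting 1 RNA sample gave 5 to 1210. The share of higher calls ran from 33.8% with normexp to 72.3% with no filter, against 48.7%. The replicate block kept 496 of the 509 and changed no call of the 52 named genes. With no slide term 32 of these 52 still passed in the same direction, 17 missed the threshold and 3 reversed: Itga5 (-0.85), Ace (-0.42) and Sox1 (-0.010), with the same values when the day 0 arrays of slide 1 were left out. The 2 settings without the day 0 arrays of slide 1 and with cyclic loess were chosen after seeing the data. Of the 36 list medians, 22 stayed within 1 SD of the samples with no slide term and 35 with quantile scaling. The dim day 14 arrays limit genes near background.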
